A study of Mus musculus with 4 samples.

Results

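The secreted WNT antagonists examined here are the 10 mouse genes of the secreted frizzled-related protein family (Sfrp1, Sfrp2, Frzb, Sfrp4 and Sfrp5), of WNT inhibitory factor (Wif1) and of the dickkopf family (Dkk1, Dkk2, Dkk3 and Dkk4), out of 21887 protein-coding genes on the standard chromosomes. They were chosen by family name, and all 10 were found in the gene annotation of the mm10 assembly. The data were ATAC-seq peak lists, which give regions where the transposase Tn5 could reach DNA, from mouse hair follicle stem cells (HFSC). The cells had been sorted as lacking Ly-6A/E and carrying CD34 and a marker spelled CD45f in the labels. One list came from 2 samples labelled Irx5KO and the other from 2 samples labelled WT. Irx5 encodes an Iroquois homeodomain transcription factor. The sources used here do not give the strain, age or sex of the mice or the structure of the Irx5 allele.

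WNT ligands signal by bringing a frizzled receptor together with the co-receptor LRP5 or LRP6, which protects beta-catenin from breakdown and lets it act with TCF/LEF factors in the nucleus. Secreted antagonists work outside the cell at different steps. SFRP proteins and WIF1 bind WNT ligands themselves, SFRP proteins through a domain resembling that of frizzled receptors, whereas DKK1, DKK2 and DKK4 bind LRP5 and LRP6. In mouse skin WNT signalling starts each growth phase of the follicle, and resting bulge stem cells are known to express antagonists such as Sfrp1 and Dkk3.

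Because each genotype was represented by 1 pooled list, there was no spread between replicates and no test between genotypes could be made. Every comparison below describes 2 lists, and each interval is a 95% Wilson interval that covers counting error only. Fewer cells with an open site and less opening per cell cannot be told apart in such lists, nor can genotype and library preparation. On the standard chromosomes 484992 peaks were listed for Irx5KO and 498061 for WT. Read depth per sample was not known from the lists. A peak within 1000 bp of either annotated end of a gene is called a gene-end peak, since the gene spans carried no strand. All 10 HFSC markers examined had a gene-end peak in both lists, against 75.2% of all protein-coding genes. Cd34, Krt15, Lhx2 and Sox9 are among them, named as examples after their values were seen. So did 11 of the 28 markers of other epidermal cells, fibroblasts, haematopoietic cells, endothelium and melanocytes have one in both lists. Of the rest, 6 had such a peak solely in Irx5KO (6.07% of all genes), 7 solely in WT (3.99%) and 4 in no list (14.7%).

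The starts of 4 antagonist genes show the range found among them, from a start lying wholly inside peaks of both lists to one with no peak nearby. The sequences are the bases just before the annotated start on the mm10 (GRCm38.p6) assembly, from RefSeq, which holds such a sequence for 6 of the 10 genes. For Wif1, on the plus strand at chr10:121033754-121034003, all 250 bases lay inside a peak of the Irx5KO list and inside a peak of the WT list. For Dkk2, on the plus strand at chr3:132085042-132085265, capitals mark the 95 of 224 bases that lay inside a WT peak, and 0 lay inside an Irx5KO peak. For Dkk1, on the minus strand at chr19:30549497-30549746, neither list had a peak over the 250 bases, and capitals mark a match to the TCF/LEF-type motif CTTTGAA. For Sfrp5, on the minus strand at chr19:42202253-42202502, neither list had a peak over the 250 bases.
Wif1: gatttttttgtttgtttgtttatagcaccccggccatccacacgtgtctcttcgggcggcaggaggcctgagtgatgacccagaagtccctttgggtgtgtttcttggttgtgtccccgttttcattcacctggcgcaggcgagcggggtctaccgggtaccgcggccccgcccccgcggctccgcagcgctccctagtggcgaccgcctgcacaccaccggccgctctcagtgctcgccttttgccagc
Dkk2: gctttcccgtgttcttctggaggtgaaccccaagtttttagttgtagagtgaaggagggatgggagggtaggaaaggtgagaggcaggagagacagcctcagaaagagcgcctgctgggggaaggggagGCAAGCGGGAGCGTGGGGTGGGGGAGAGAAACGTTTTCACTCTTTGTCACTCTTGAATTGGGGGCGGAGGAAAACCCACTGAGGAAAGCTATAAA
Dkk1: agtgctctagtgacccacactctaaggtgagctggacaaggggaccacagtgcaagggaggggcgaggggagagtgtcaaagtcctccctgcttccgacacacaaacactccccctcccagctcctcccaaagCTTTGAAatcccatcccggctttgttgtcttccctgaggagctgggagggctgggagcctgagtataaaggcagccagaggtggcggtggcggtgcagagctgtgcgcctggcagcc
Sfrp5: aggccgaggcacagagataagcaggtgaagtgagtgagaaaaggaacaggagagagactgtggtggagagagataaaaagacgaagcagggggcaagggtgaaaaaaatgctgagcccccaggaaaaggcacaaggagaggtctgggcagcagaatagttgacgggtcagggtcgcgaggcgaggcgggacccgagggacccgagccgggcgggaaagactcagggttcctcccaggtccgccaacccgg

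The 250 bases before the start of the 6 genes were searched on both strands for 4 motifs, and a single match was found, so that no matches overlapped. The letters CTTTGAA were found only at Dkk1 among the 6, and at 4.29% of 17492 such windows over all genes with a RefSeq sequence. The TCF/LEF-type letters CTTTGAT (2.87% of all windows), the Iroquois-type letters ACATGT (3.91%) and the AP-1-type letters TGANTCA (6.22%) were not among the letters of the 6 windows. A match describes the sequence and is not a measured binding site. G and C made up between 55.6% and 64.4% of these 6 windows, against a median of 55.2% over all windows. Peaks of both lists lay over the 250 bases for 2 of the 6 genes, Sfrp2 and Wif1, against 59.1% of all genes with such a window. For Sfrp2 these bases, from 83766071 to 83766320, lie wholly inside the annotated gene span, which begins at 83765750. They therefore do not describe sequence outside that gene. A WT peak alone lay there for 1, Dkk2 (3.40% of all), an Irx5KO peak alone for 0 (6.58%), and no peak for 3, Frzb, Sfrp5 and Dkk1 (30.9%).

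Counted by gene, with a peak near either end enough, a gene-end peak stood in both lists for 8 of the 10 genes, against 75.2% of all protein-coding genes, and in Irx5KO only for 1, Dkk4, against 6.07%. No antagonist gene had one in WT only (3.99% of all genes), and 1, Sfrp5, had one in neither list (14.7%). These shares lie close to those of all genes. At several of these 8 genes the ends carried low-scored peaks. Scores are the authors' own and serve here only as a rank inside each list, where percentile 100 is the highest score. When each list was limited to its upper 50% by score, 2 genes, Sfrp1 and Dkk3, kept a gene-end peak in both lists, and 3, Sfrp2, Wif1 and Dkk4, had one in Irx5KO only. The 5 others had none there. At Sfrp2 the Irx5KO peak, 907 bp from the upper gene end, overlaps a WT peak that is 1067 bp from that end, at percentile 36.2. At Wif1 the Irx5KO peak overlaps a WT peak at percentile 37.1. Under the same limit such a peak was listed for both genotypes at 40.1% of all genes, solely for Irx5KO at 11.8%, solely for WT at 2.63% and for no genotype at 45.5%.

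Around the genes the lists differed more from gene to gene than in sum. A gene's window is its body plus 50 kb on each side. Peaks that overlap a peak of the other list by at least 1 bp are called shared, and the others are Irx5KO-only or WT-only. The 10 windows do not overlap each other. They held 193 Irx5KO peaks, of which 139 (72.0%) were shared, and 200 WT peaks, of which 143 (71.5%) were shared. The shared part over the windows of all genes was 75.6% for Irx5KO and 74.7% for WT. This left 54 Irx5KO-only and 57 WT-only peaks. Irx5KO-only peaks were thus 48.6% (39.6 to 57.8) of the genotype-only peaks, against 49.3% over all genes.

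Single genes leaned to either side. Irx5KO-only peaks were the more frequent kind at 6 genes (46.6% of all genes) and WT-only peaks at 3 (41.3%), with equal numbers at 1. A size rule took genes with at least 6 genotype-only peaks and at least 2 times as many in one list as in the other. Sfrp1, Wif1, Dkk3 and Dkk4 passed it with more Irx5KO-only peaks, 4 of 10 genes against 20.5% of all genes. Sfrp4 and Dkk1 passed it with more WT-only peaks, 2 of 10 against 16.0%. The 4 others, Sfrp2, Frzb, Sfrp5 and Dkk2, did not pass. The median difference of Irx5KO-only minus WT-only peaks was 1.5 over the 10 genes and 0 over all genes.

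**Figure D1:**
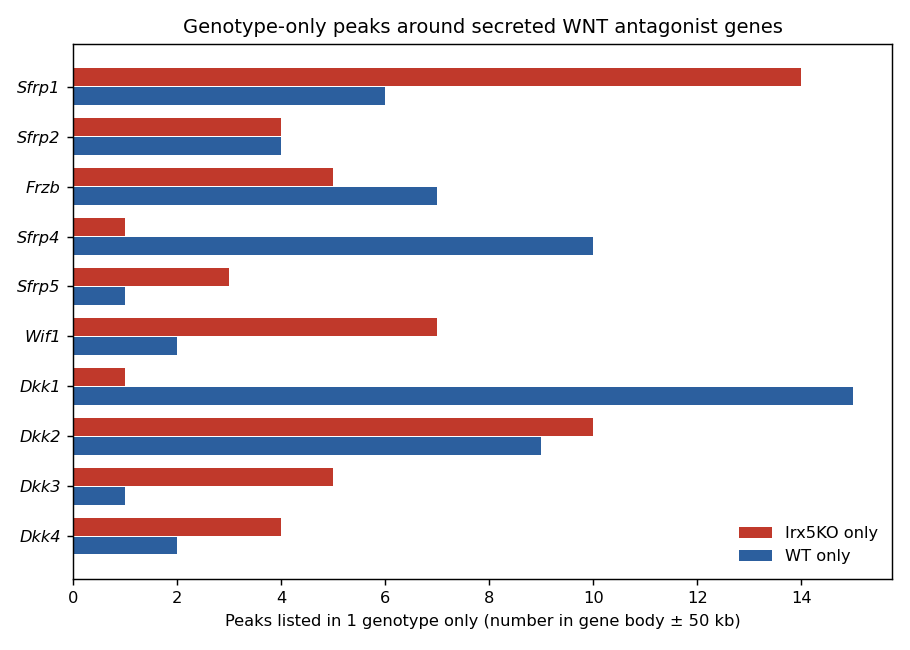
Number of Irx5KO-only peaks (red, upper bar) and WT-only peaks (blue, lower bar) in the window of each antagonist gene, which is the gene body plus 50 kb on each side. Sfrp1 has 14 against 6, Dkk1 has 1 against 15 and Sfrp4 has 1 against 10.

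Gene bodies and flanks differed in the lists. Inside the bodies of the 10 genes lay 23 Irx5KO-only and 10 WT-only peaks. Irx5KO-only peaks made up 69.7% (52.7 to 82.6) of them, where the bodies of all genes gave 48.4%. In the flanks lay 31 Irx5KO-only and 47 WT-only peaks. Here Irx5KO-only peaks made up 39.7% (29.6 to 50.8), where the flanks of all genes gave 49.8%. The body excess came mainly from Dkk2, with 9 Irx5KO-only and 4 WT-only peaks, and Sfrp1, with 7 and 2 in the same order. The flank excess of WT came mainly from Dkk1, with 1 Irx5KO-only and 15 WT-only peaks, and Sfrp4, with 0 and 9.

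Sfrp1 encodes an SFRP protein known from bulge stem cells of mouse skin. The gene lies on chromosome 8 from 23411383 to 23449632, and no other protein-coding gene reaches into its window. The window held 32 Irx5KO peaks and 26 WT peaks, which is 23.1 and 18.8 peaks per 100 kb, against medians of 16.2 in Irx5KO and 15.7 in WT over all genes. Of these, 14 were Irx5KO-only and 6 were WT-only. An Irx5KO excess of 8 or more was found for 4.59% of all genes. With flanks of 100 kb the counts were 14 Irx5KO-only and 10 WT-only, and Sfrp1 did not pass the size rule. Within the gene body, 7 Irx5KO-only peaks lay between 23425741 and 23442970, a stretch of 17.2 kb. They were 200 to 350 bp wide and at percentiles 4.02 to 13.3 of the Irx5KO scores, low ranks. The 2 WT-only peaks of the body lay nearer to its lower end, between 23413251 and 23415130. Both lists had a peak across the lower gene end, spanning 23411031 to 23411760 in Irx5KO and 23411081 to 23411720 in WT. The highest-scored peaks of the window lay 38.3 kb below the gene, spanning 23369951 to 23373080 in Irx5KO and 23369351 to 23373080 in WT. The highest-scored Irx5KO-only peak, from 23454321 to 23454720, was at percentile 61.1 of its list, and the highest-scored WT-only peak, from 23381011 to 23381230, at percentile 58.1 of its own.

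Sfrp2 encodes an SFRP protein known as a product of dermal fibroblasts. It lies on chromosome 3 from 83765750 to 83774314, and its window held 13 peaks in Irx5KO and 13 in WT. With 4 Irx5KO-only and 4 WT-only peaks the lists were even. Their places differed, since 2 of the Irx5KO-only peaks lay in the gene body, between 83766831 and 83767410, and 0 of the WT-only peaks did. At the lower gene end the peaks were shifted against each other. The Irx5KO peak ran from 83766131 to 83766450 and the WT peak from 83765771 to 83766190. A further Irx5KO gene-end peak, from 83775221 to 83775870, overlaps a WT peak from 83775381 to 83775890, which lies just outside the gene-end window.

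Frzb, also named Sfrp3, encodes an SFRP protein first known from cartilage. It lies on chromosome 2 from 80411970 to 80447396 on the minus strand. The window held 20 Irx5KO and 21 WT peaks, of which 5 were Irx5KO-only and 7 WT-only. The listed regions were much alike, with 72.9% of the bases covered by either list covered by both, against a median of 65.1% over all genes. No listed peak lay over the 250 bases before the gene start, and the closest peak of either list ended 536 bp inside the gene. That peak was at percentile 6.08 in Irx5KO and 22.4 in WT. In the gene body lay 0 Irx5KO-only and 2 WT-only peaks. The highest-scored region of the window, 40.96 kb or more beyond the gene start and nearest to Nckap1, was listed as separate peaks in Irx5KO, of 2460 bp and 3320 bp, and as a single peak of 6060 bp in WT.

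Sfrp4 had many more peaks listed in WT than in Irx5KO around it, nearly all of them outside the gene. It lies on chromosome 13 from 19623175 to 19632825, with Epdr1 3.35 kb below it and Nme8 12.3 kb above it. The window held 14 Irx5KO peaks, of which 1 was Irx5KO-only, and 25 WT peaks, of which 10 were WT-only. Of the 10 WT-only peaks 1 lay in the gene body, 3 below the gene and 6 above it. By distance, 3 of them were nearest to Epdr1, 6 to Nme8 and 1 to Sfrp4. They were at percentiles 0.369 to 46.6 of the WT scores. The sole Irx5KO-only peak lay in the gene body from 19624781 to 19625130. At the lower gene end both lists had a peak, spanning 19622881 to 19623530 in Irx5KO and 19622811 to 19623280 in WT.

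Sfrp5, an SFRP gene on the minus strand of chromosome 19 from 42197971 to 42202252, had no peak in the gene body and none at its ends in either list. From the start of the gene, the closest peak was 15.1 kb away in Irx5KO and 28.8 kb away in WT. The window reaches Marveld1, Zfyve27 and Golga7b. It held 12 Irx5KO and 11 WT peaks, with 3 Irx5KO-only and 1 WT-only. Of all these peaks 1 Irx5KO peak and 0 WT peaks were nearest to Sfrp5 itself, so that the counts of this window mostly describe neighbouring genes.

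**Figure D2:**
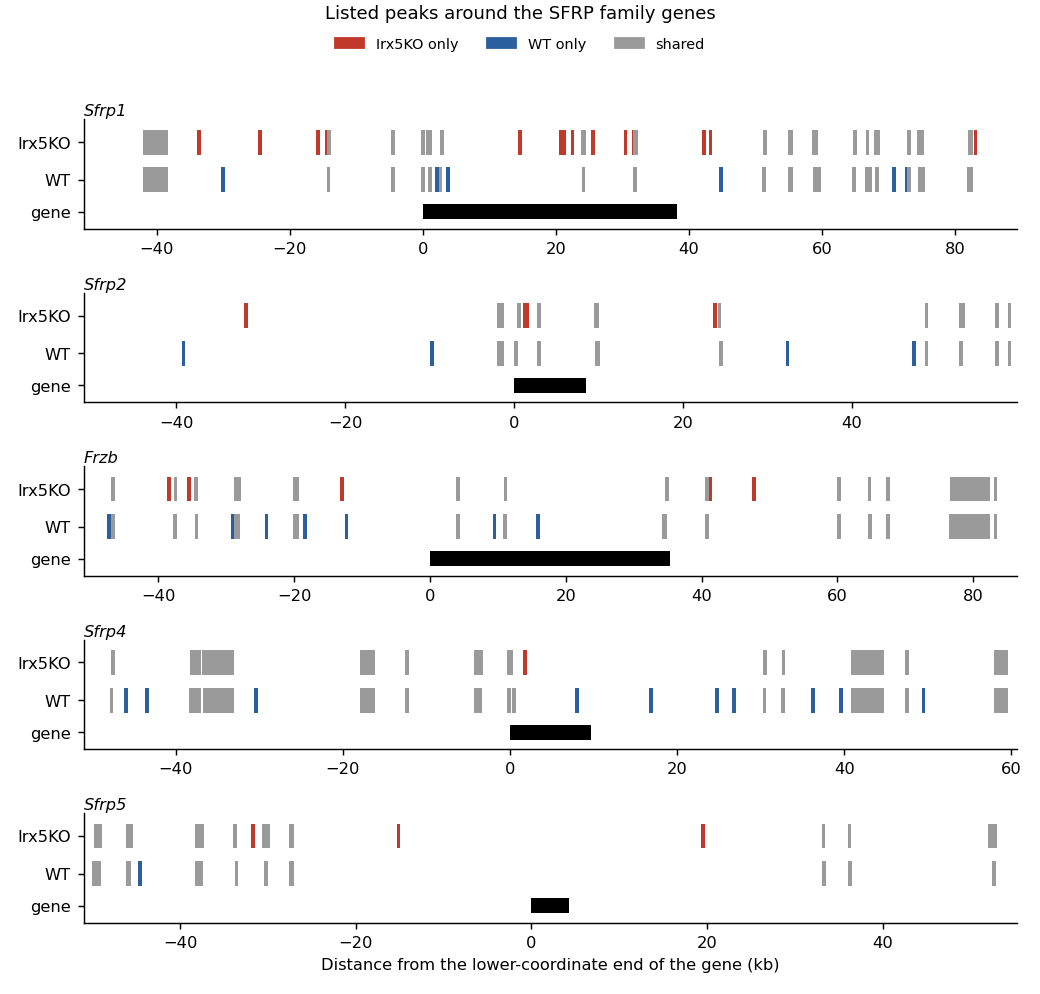
Peaks listed in Irx5KO (upper row) and WT (lower row) in the windows of the 5 SFRP family genes, by distance in kb from the lower-coordinate end of the gene, with the gene in black. Shared peaks are grey, Irx5KO-only peaks red and WT-only peaks blue, very narrow peaks are drawn at a fixed smallest width, and the cluster of 7 red peaks inside Sfrp1 and the 9 blue peaks in the flanks of Sfrp4 can be seen.

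Wif1, which encodes a secreted WNT-binding protein, lies on chromosome 10 from 121034004 to 121100642, on the plus strand. Its window contains no other protein-coding gene. The window held 25 Irx5KO and 20 WT peaks, of which 7 were Irx5KO-only and 2 WT-only. Of the 7 Irx5KO-only peaks, 5 lay upstream of the gene, between 120984331 and 121020560, and 2 in the gene body. Both WT-only peaks lay downstream. Of the 5 upstream peaks 2 were nearest to Lemd3, which lies outside the window. The shared peak over the gene start had almost the same borders in both lists, spanning 121033221 to 121034450 in Irx5KO and 121033221 to 121034410 in WT. The printed Wif1 sequence lies within it. It ranked at percentile 55.5 in Irx5KO and 37.1 in WT. The listed regions of the window were alike, with 75.7% of the bases covered by either list covered by both. The widest region, 35.4 kb beyond the gene, was a single peak of 7130 bp in Irx5KO and of 7150 bp in WT.

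Dkk1 had the largest excess of WT-only peaks among the 10 genes. DKK1 blocks LRP5 and LRP6, and forced expression of Dkk1 in mouse skin is known to prevent hair follicles from forming. The gene lies on chromosome 19 from 30545876 to 30549496 on the minus strand, with Prkg1 15.0 kb upstream of it. The window held 17 Irx5KO peaks, of which 1 was Irx5KO-only, and 31 WT peaks, of which 15 were WT-only. A WT excess of 14 or more was found for 1.91% of all genes. With flanks of 10 kb the counts were 1 Irx5KO-only and 2 WT-only. Downstream of the gene 11 WT-only peaks were spread over 45.1 kb, from 30496661 to 30541720, where the Irx5KO list had no peak of its own. They were 210 to 370 bp wide, at percentiles 2.13 to 52.0 of the WT scores with a median of 9.96, which again are mostly low ranks. The other 4 lay upstream, 3 of them nearest to Prkg1. Shared regions were as many in both lists, with 16 Irx5KO and 16 WT peaks. Both lists had a weak peak just inside the gene start, from 30548971 to 30549230 in Irx5KO, at percentile 2.33, and from 30549081 to 30549290 in WT, at percentile 0.369. The printed Dkk1 sequence with its CTTTGAA match ends at the gene start, which is 266 bp from the Irx5KO peak and 206 bp from the WT peak.

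Dkk2, which is known to be expressed in the dermis and to be needed for hairless skin of the mouse paw, lies on chromosome 3 from 132085266 to 132180304 on the plus strand. It is the longest of the 10 genes, and its window contains no other. Both lists held 28 peaks there, of which 10 were Irx5KO-only in the Irx5KO list and 9 were WT-only in the WT list. Inside the gene body, however, lay 9 Irx5KO-only and 4 WT-only peaks, and in the flanks 1 and 5 in the same order. Most of these 9 Irx5KO-only body peaks were of low rank, with a median percentile of 8.77 in their list. For the 4 WT-only body peaks the median percentile was 37.1 in the WT list. An Irx5KO-only peak from 132140351 to 132140550 had the highest score of all Irx5KO peaks in the window, at percentile 92.7, with the smallest listed width of 200 bp. The highest-scored WT-only peak, from 132149771 to 132150000, was at percentile 60.1 of its list. At the gene start the WT list had a peak from 132085171 to 132085450, which reaches the capitals of the printed sequence. The Irx5KO peak that overlaps it began inside the gene and ran from 132085351 to 132086340. These 2 peaks were of low rank, at percentile 18.4 in Irx5KO and 21.1 in WT. A further gene-end peak of each list was also of low rank, at percentile 23.6 in Irx5KO and 16.5 in WT.

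Dkk3 encodes a divergent DKK protein and is known as a gene of bulge stem cells. It lies on chromosome 7 from 112116019 to 112159482, with Usp47 4.63 kb below it. The window held 21 Irx5KO and 16 WT peaks, of which 5 were Irx5KO-only and 1 was WT-only. The 5 Irx5KO-only peaks were scattered, with 2 in the gene body, 1 below and 2 above the gene, and 2 of them were nearest to Dkk3 itself. Their percentiles were 1.92 to 33.3. The sole WT-only peak lay in the gene body from 112158141 to 112158450, 1032 bp from the upper gene end and so just outside the gene-end window. The gene-end peak of both lists lay 809 bp below the lower end, spanning 112114811 to 112115210 in Irx5KO and 112114811 to 112115210 in WT, with the same borders.

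Dkk4, known in mouse from hair placodes where WNT signalling turns it on, lies on chromosome 8 from 22623685 to 22628018. Polb lies 101 bp above it, and the window also reaches Vdac3 and Ikbkb. No peak lay in the gene body in either list. The window held 11 Irx5KO and 9 WT peaks, of which 4 were Irx5KO-only and 2 WT-only, the smallest numbers that pass the size rule. The Irx5KO-only peak from 22622111 to 22622700 ended 985 bp from the lower gene end, just inside the gene-end window, and ranked at percentile 68.9 of its list. The closest WT peak to that end, from 22617811 to 22618030, was 5655 bp away and was itself WT-only. By distance 2 Irx5KO-only and 2 WT-only peaks were nearest to Dkk4.

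**Figure D3:**
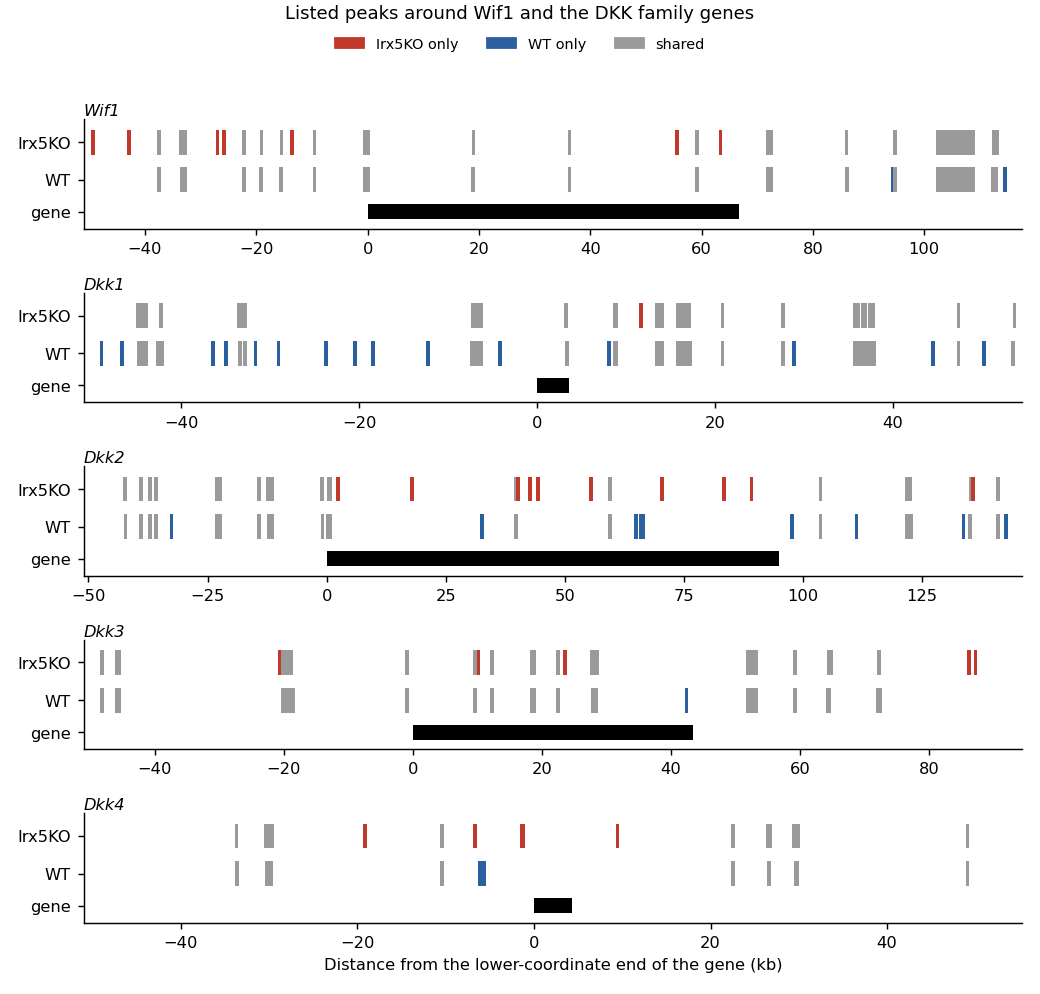
Peaks listed in Irx5KO (upper row) and WT (lower row) in the windows of Wif1 and the 4 DKK genes, drawn as for the SFRP family, by distance in kb from the lower-coordinate end of the gene. The row of blue peaks around Dkk1 (15 WT-only against 1 Irx5KO-only) and the red peaks inside Dkk2 (9 Irx5KO-only against 4 WT-only) can be seen.

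Genotype-only peaks around the 10 genes were narrow and low-scored, like those of the lists as a whole. Median width was 260 bp for the 54 Irx5KO-only peaks and 250 bp for the 57 WT-only peaks, and median widths of all genotype-only peaks were 250 bp in Irx5KO and 250 bp in WT. Median score percentile was 12.8 for the Irx5KO-only peaks and 11.3 for the WT-only peaks, against 15.5 for all Irx5KO-only and 18.0 for all WT-only peaks. In the upper 50% by score stood 5 of the Irx5KO-only peaks, 2 at Dkk2 and 1 each at Sfrp1, Wif1 and Dkk4. In that part of the WT list stood 4 of the WT-only peaks, 1 each at Sfrp1, Wif1, Dkk1 and Dkk2. With those peaks alone none of the 10 genes passed the size rule in either direction, and of all genes 0.151% passed it for Irx5KO and 0.448% for WT. By family, 27 peaks were Irx5KO-only and 28 WT-only at the SFRP genes, 7 and 2 in the same order at Wif1, and 20 and 27 at the DKK genes.

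**Figure D4:**
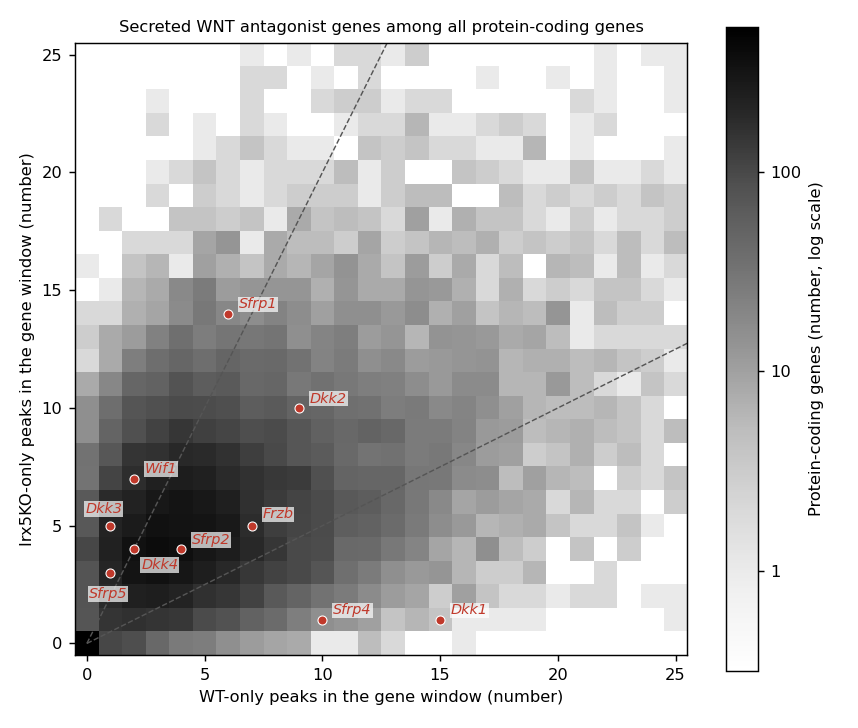
Number of Irx5KO-only peaks (vertical) against WT-only peaks (horizontal) in the window of every protein-coding gene, with the grey scale giving the number of genes on a log scale and red points the 10 antagonist genes. Dashed lines mark a ratio of 2 in either direction, Dkk1 (15 WT-only) and Sfrp4 (10 WT-only) lie far below the lower line, and 510 genes with more than 25 peaks of either kind lie outside the axes.

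Genes for other steps of the WNT pathway were counted in windows of the same kind, in which a peak near neighbouring genes counts for each of them. The intervals do not allow for such repeated peaks. At the 19 WNT ligand genes 138 peaks were Irx5KO-only and 75 WT-only. The Irx5KO-only share was 64.8% (58.2 to 70.9). Of the 19 genes 10 passed the size rule with more Irx5KO-only peaks (20.5% of all genes) and 1 with more WT-only (16.0%). Irx5KO-only and WT-only peaks numbered 5 and 1 at Wnt1, 4 and 14 at Wnt2, 5 and 2 at Wnt2b, and 11 and 2 at Wnt3a. For the 15 receptor genes, which encode the proteins that WNT ligands bind, the share was 64.4% (57.8 to 70.4). The rule was passed by 10 of them for Irx5KO and by 1, Fzd1, for WT. Irx5KO-only and WT-only peaks numbered 4 and 8 at Fzd1, 7 and 3 at Fzd2, 8 and 3 at Fzd3, and 7 and 3 at Fzd4. The 7 genes for KREMEN proteins, LGR receptors and the ligases ZNRF3 and RNF43 gave 64.0% (52.7 to 73.9). Of these Lgr5, a stem cell marker, had 10 Irx5KO-only peaks against 4 WT-only peaks, and Znrf3 had 6 against 1.

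Other extracellular antagonists, which were not among the 10 genes, gave a share of 58.5% (47.7 to 68.6) in 7 windows. Irx5KO-only peaks were the more frequent kind at 4 of the 7 (46.6% of all genes) and WT-only peaks at 3 (41.3%). The size rule was passed by 2 for Irx5KO (20.5% of all genes), named next, and by 0 for WT (16.0%). Notum, whose product removes a lipid from WNT ligands, had 9 Irx5KO-only and 0 WT-only peaks. Apcdd1, which encodes a membrane inhibitor of WNT signalling, had 5 and 2 in that order. R-spondin genes and the genes for WNT secretion, 6 in all, gave 43.0% (35.3 to 51.0), with Rspo1 past the rule for Irx5KO (7 and 2) and Rspo3 past it for WT (9 Irx5KO-only and 18 WT-only). The beta-catenin route gave 61.3% (52.4 to 69.6) in 11 windows. Of these 11 genes 4 passed the rule for Irx5KO (20.5% of all genes) and 2 for WT (16.0%). There Ctnnb1, the beta-catenin gene, had 2 Irx5KO-only peaks against 4 WT-only peaks. Axin1 had 8 against 3, Axin2, a feedback inhibitor, 9 against 4, and Gsk3a 14 against 2. TCF/LEF and co-factor genes gave 68.5% (61.8 to 74.5) in 12 windows, with 7 genes past the rule for Irx5KO and 0 for WT. In that list Lef1 had 18 Irx5KO-only peaks against 9 WT-only peaks, and Tcf7l1 had 27 against 8.

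Set side by side, 36 of the 77 genes in these lists passed the size rule with more Irx5KO-only peaks and 5 with more WT-only peaks, and the 10 antagonist genes gave 4 and 2 in the same order, where the shares over all genes were 20.5% and 16.0%. Whether the antagonist genes differ from the other pathway genes was not tested. The median difference of Irx5KO-only minus WT-only peaks was 1.5 for the antagonist genes and 3 for the 77 genes. Among the lists of cell type markers the Irx5KO-only share was 48.2% for fibroblasts, 49.3% for haematopoietic cells, 52.1% for other epidermal cells, 54.1% for endothelium and 58.2% for melanocytes. The HFSC markers, which include Lgr5 and Tcf7l1 again, gave 70.6% (62.4 to 77.6), with 96 Irx5KO-only peaks against 40 WT-only peaks. The part of other cell types in the counts at the antagonist genes was not tested.

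**Figure D5:**
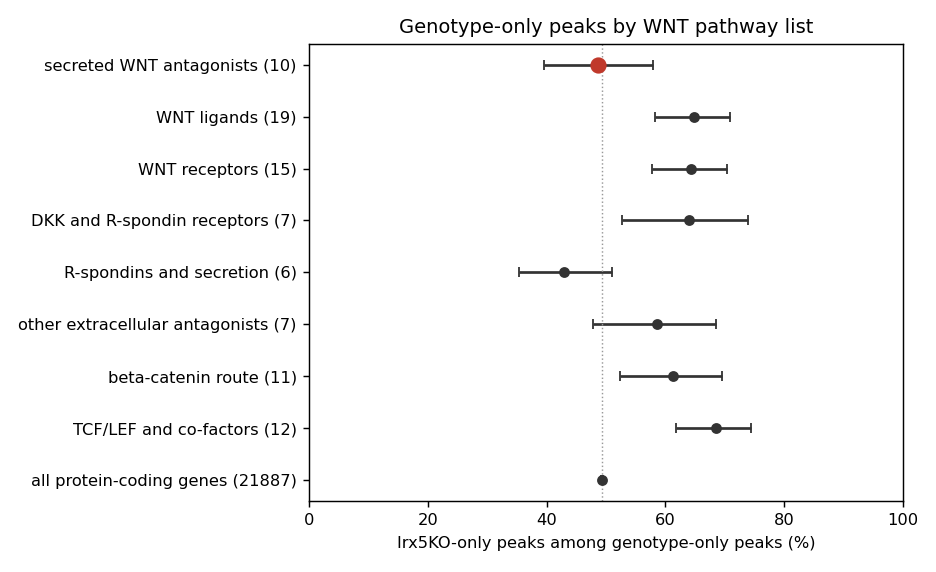
Share of Irx5KO-only peaks among all genotype-only peaks in gene windows, in percent, for the 10 antagonist genes (red) and the other WNT pathway lists (black), with the number of genes in brackets and 95% Wilson intervals as bars. The bars do not allow for peaks counted at several neighbouring genes. The dotted line marks all protein-coding genes (49.3%), and the antagonist genes lie at 48.6%, with the other lists between 43.0% and 68.5%.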

How the data were processed

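ATAC-seq was carried out on sorted HFSC in 2 Irx5KO and 2 WT samples. Both samples of a genotype name the same deposited list, per the labels, so the lists were taken as pooled by the authors. The submitters' processing notes name Genrich 0.6, Bowtie2 and cutadapt 2.9, besides FastQC, ChIPseeker 1.24.0 and deepTools 3.4.2, and the build mm10. The sources used here do not give the role or settings of each, the treatment of duplicate and multiply mapped reads or any shift for the Tn5 cut. Such settings, and depth, decide which weak regions enter a list.

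The deposited score is a whole number of at least 50 for each peak, the authors' own, and was used only as a rank within a list. The other deposited measures (signal, p-value, q-value) are 0 throughout the 486180 entries for Irx5KO and the 499794 for WT. Peaks on unplaced contigs (1188 in Irx5KO, 1733 in WT) were left out.

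Gene spans came from RefSeq for GRCm38.p6, without strand or exons, so gene ends replaced starts and exons were not told apart from introns. Strand and start were known for the 6 genes with a RefSeq start sequence. Counts were made with Python 3.11.15, pandas 2.3.3 and scipy 1.17.1. Shared peaks per list and all peaks per gene window were equal to those of bedtools 2.31.1, and the other counts were not compared with it. The size rule was tried on simulated numbers with an excess planted in genes with many genotype-only peaks. False calls were not counted there. All 10 genes are named. Other genes are named as neighbours or nearest genes of the peaks described, or if a WNT pathway list holds them and they pass the size rule. Of the latter at most 4 a list are named, in list order. The HFSC markers named (Cd34, Krt15, Lhx2, Sox9) are examples outside this rule, chosen after their values were seen. The 10 genes, the lists and the rules were chosen with earlier results of these data known. All 115 list entries were matched. Alternatives changed the score threshold, list length, overlap, peak width, flank, assignment, gene-end window and size rule.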

Additional observations from a re-analysis of the deposited data

How the results depend on the processing

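No paired analysis was possible because each genotype has 1 pooled list, and for the same reason no sample could be left out. The Irx5KO-only share of 48.6% moved to 62.5% with flanks of 10 kb and to 69.7% with gene bodies alone, where the distant WT-only peaks of Dkk1 and Sfrp4 drop out by construction, and stayed inside its interval in the 6 other alternatives. The number of genes past the size rule, 4 for Irx5KO and 2 for WT, became 0 and 0 in the upper 50% by score (0.151% and 0.448% of all genes, against 20.5% and 16.0% in the report), 1 and 0 with flanks of 10 kb (7.12% and 7.26%), 2 and 0 with gene bodies alone (3.85% and 3.79%), and 2 and 1 with peaks nearest to the gene itself (7.14% and 9.34%). The numbers thus fell for genes in general. With flanks of 100 kb they were 3 and 2 (19.1% and 13.5%), since Sfrp1, with 14 Irx5KO-only and 10 WT-only peaks, no longer passed. The number for Irx5KO was 2 from a ratio of 3 (10.1%) and 1 from 10 genotype-only peaks (11.3%). Sfrp1 and Wif1 pass it under the nearest-gene count for Irx5KO and Dkk1 for WT, while Sfrp4, Dkk3 and Dkk4 do not. Genes with a gene-end peak in both lists, Irx5KO only and neither, 8, 1 and 1 in the report, became 2, 3 and 5 in the upper 50% by score (40.1%, 11.8% and 45.5% of all genes, against 75.2%, 6.07% and 14.7%). Those in Irx5KO only became 2 with lists of equal length, where Dkk1 joins Dkk4 (6.41%), and 0 with windows of 500 bp (6.67%), where 4 genes have none (20.9%). The 250 bases before the start were an alternative chosen after seeing the data. Peaks lay there in both lists for 2 of 6 genes (59.1% of all), 1 of them Sfrp2, whose bases lie inside its annotated span. They lay solely in Irx5KO for 0 (6.58%), solely in WT for 1 (3.40%) and in no list for 3 (30.9%). None of the 6 genes past the size rule changed direction in 8 alternatives, which count the same 2 lists again, though their differences reached 0 in some. The WT excess of Dkk1 and Sfrp4 nearly vanished close to the genes. With flanks of 10 kb each had 1 Irx5KO-only and 2 WT-only peaks. Gene bodies alone gave 0 and 0 at Dkk1, and 1 and 1 at Sfrp4, in the same order. Of the others, Dkk2 turned to more WT-only peaks in 2 alternatives and Frzb to more Irx5KO-only peaks in 1. Weak peaks depend on depth, which the lists do not give.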
